A study of Mus musculus with 6 samples.

Results

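The RNA of mouse MS-1 cells transfected with an inhibitor of miR-31 or of miR-27 was set, with both inhibitors pooled, against the RNA of the same cells transfected with a negative-control inhibitor. MS-1 is an immortalised endothelial line derived from pancreatic islets, and the inhibitors were locked nucleic acid oligonucleotides, which bind a microRNA and keep it from its targets. All 6 libraries entered, 1 for each condition. LNA-NC-cont, LNA-miR31-cont and LNA-miR27-cont had no TGF-β2, and LNA-NC-TGFb, LNA-miR31-TGFb and LNA-miR27-TGFb had 72 h with 1 ng/ml TGF-β2. The 4 inhibitor libraries were compared with the 2 negative-control libraries of the same TGF-β state, on log2(FPKM + 1), where FPKM is the deposited level, fragments scaled to transcript length and library size. Of 29955 gene names, 11816 had a mean of at least 1 FPKM. Of these, 45 were left out because a library listed them at 0, and 11771 were tested. No condition was replicated. Whether each library came from its own culture is not in the labels, so a p-value here measures the spread between these 6 samples, which may be technical. In the pooled comparison that spread also holds any difference between the 2 inhibitors and any dependence on TGF-β. A high p-value there need not come from noise alone. Both inhibitors were measured against the same 2 negative-control libraries. A shift common to both inhibitors and a deviation of those 2 libraries therefore cannot be told apart.

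MicroRNAs guide Argonaute proteins to messenger RNAs that carry a match to the microRNA's seed, its bases 2 to 8, and lower their stability or translation. miR-31 and miR-27 are both found in endothelial cells, where they have been linked to vessel growth and adhesion. TGF-β can turn endothelial cells into mesenchymal ones, and the study asked how these microRNAs take part. An inhibitor is expected to relieve the targets of its own microRNA. A shift that 2 inhibitors of unrelated seeds share is a different quantity, and the sequences show that the seeds are unrelated. They are RefSeq mature sequences, placed on GRCm38.p6, with the seed in capitals. The miR-27 inhibitor's label does not say whether it was made for miR-27a or miR-27b, which share the seed and 20 of 21 bases, differing at C19U (the miR-27a base first, counted from the 5′ end).
miR-31-5p (chr4:88910614-88910635, minus strand): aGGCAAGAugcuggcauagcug
miR-27a-3p (chr8:84208727-84208747, plus strand): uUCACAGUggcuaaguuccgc
miR-27b-3p (chr13:63300760-63300780, plus strand): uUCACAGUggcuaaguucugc
The table lists Mir31, Mir27a and Mir27b at 0 in all 6 libraries, so the inhibition itself could not be checked in it.

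The libraries were of similar scale, with medians of 3.74 to 3.77 on log2(FPKM + 1) over the genes tested. The number of mapped fragments is not in the table, so depth is unknown and no counting interval can be given. The 10 highest names, led by the small nucleolar RNA Snord22, held 71 to 74.2% of each library's summed FPKM. All 10 endothelial markers were tested, with a summed level of 1374 to 1553 FPKM. Pancreas and erythroid markers summed to at most 0.242 and 0.123 FPKM in any library. Of 9 epithelial markers Krt18 alone reached a mean of 1 FPKM, and it was higher with both inhibitors in both states (0.44). Krt19, under that level, lay lower in all 4, at 0.475, 0.170 and 0.346 FPKM without TGF-β for the control, the miR-31 and the miR-27 inhibitor, and at 1.37, 0.755 and 0.718 with it. In bulk RNA, fewer cells of a type and less RNA per cell cannot be told apart. Leukocyte markers summed to 108 to 213 FPKM, nearly all of it Cd68, which macrophages and many other cells make in lysosomes. LNA-miR31-TGFb stood apart from the other libraries in stress genes, and values that rest on it are given with and without it.

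In the pooled comparison the genes that stood highest with either inhibitor were stress genes of the ATF4/CHOP response together with Vegfa, Arrdc3, Fbxo32, Pim1 and Cxcr4. The genes that stood lowest included the arrestin-like genes Txnip and Arrdc4. Over all genes the differences were mostly small. Some single genes differed more, such as Ddit3 (1.53, and 0.79 without LNA-miR31-TGFb) and Txnip (-1.16, and -0.97 without it). No gene reached an adjusted p under 0.05 in limma (0% of 11771, smallest adjusted p = 0.0637). At an unadjusted p under 0.05 there were 1422 higher genes (12.1%) and 1042 lower genes (8.85%). With limma's trend and robust options 15 genes were called higher and 0 lower. The median absolute pooled difference was 0.07 and the median difference 0.01. In both TGF-β states both inhibitor libraries lay above the negative control for 2964 genes (25.2%) and below it for 2578 (21.9%). There were 112 genes at least 0.25 higher in all 4 matched differences (0.951%) and 36 at least 0.25 lower (0.306%). At 0.5 there were 9 higher genes (0.0765%) and 2 lower (0.017%), and at 1 there were 0 of either.

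The 12 higher genes named here have the largest value of the smallest of their 4 matched differences, and 5 of them belong to none of the ATF4/CHOP, p53 and NRF2 lists. Arrdc3, an arrestin-domain adaptor that takes part in receptor turnover (mm9 chr13:81022683-81035303), was at 11.6 FPKM in LNA-NC-cont, 18.96 in LNA-miR31-cont and 21.8 in LNA-miR27-cont, all without TGF-β. With TGF-β it was at 15.2, 26.2 and 26.4 in the same order of control, miR-31 and miR-27, which is kept for every gene that follows. All 4 inhibitor libraries lay above both negative-control libraries. The pooled difference was 0.75 ± 0.06 (SE of the fit, a 1.69-fold ratio of FPKM + 1), with a limma adjusted p of 0.0637. Vegfa, the main growth factor of blood vessels (chr17:46153943-46169326), was at 7.46, 11.9 and 12.5 FPKM without TGF-β and at 13.9, 21.2 and 20.5 with it. Within each state the inhibitor libraries were alike and lay above the control. Its pooled difference was 0.60 ± 0.05 (adjusted p = 0.0637). Fbxo32, a muscle-atrophy ubiquitin ligase and a known target of FoxO factors, was at 3.07, 6.65 and 6.78 FPKM without TGF-β and at 8.11, 12.3 and 12.1 with it. Pim1, a survival kinase, was at 25.2, 43.1 and 44.6 FPKM without TGF-β and at 23.5, 33.4 and 39.4 with it. Cxcr4, the receptor of the chemokine CXCL12, was at 4.09, 8.69 and 6.41 FPKM without TGF-β and at 2.97, 4.53 and 5.57 with it. For Pim1 and Cxcr4, as for Arrdc3, every inhibitor library lay above both controls. Their pooled differences were 0.73 ± 0.09 for Fbxo32, 0.69 ± 0.08 for Pim1 and 0.67 ± 0.12 for Cxcr4, with limma adjusted p-values of 0.0951, 0.0951 and 0.0977.

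**Figure D1:**
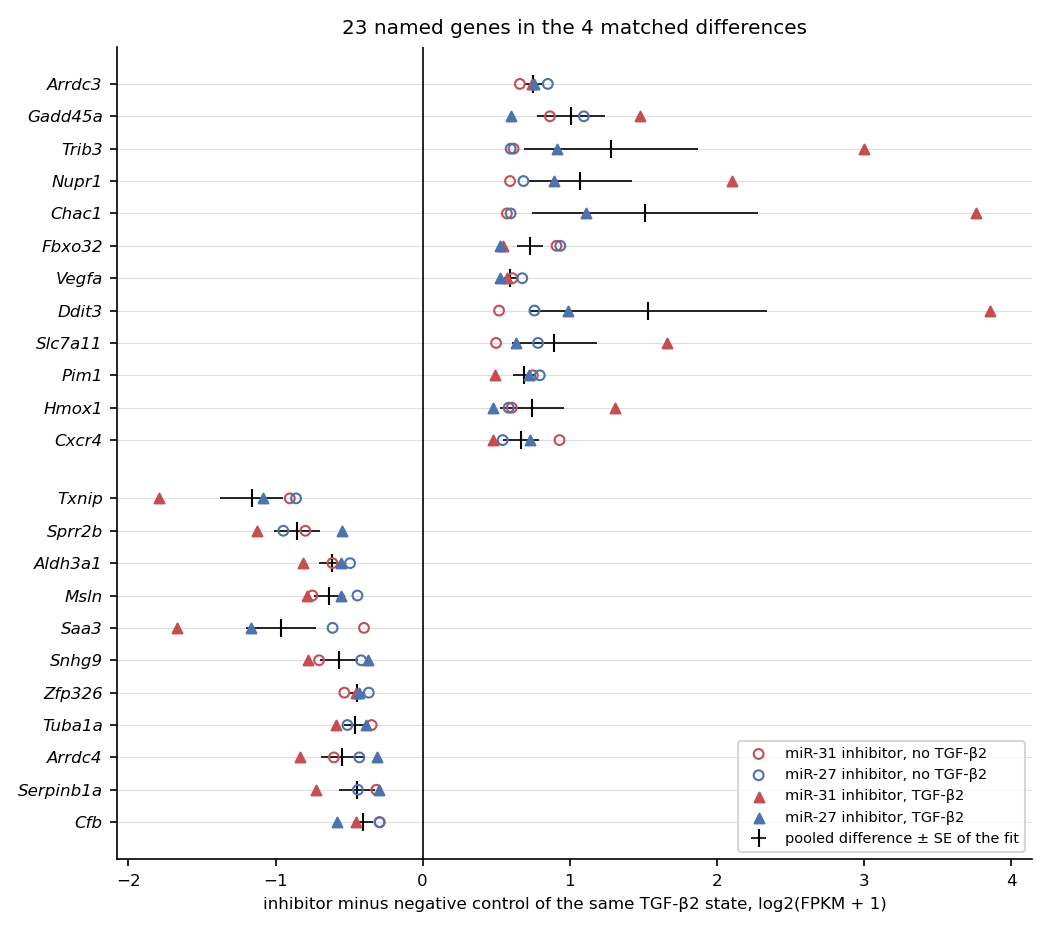
Of the 24 named genes 23 (rows) in each of the 4 matched differences (symbols), with the pooled difference and its SE in black; the axis is log2(FPKM + 1), inhibitor minus negative control. All symbols of the 12 upper genes lie right of 0 and all of the 11 lower genes left of it, which is how they were chosen; the filled red triangles of Ddit3, Chac1 and Trib3 lie 2.998 to 3.86 above the control.

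The other higher genes belong to stress responses, and for these genes LNA-miR31-TGFb was the highest of the 6 libraries. ATF4 is the transcription factor made when the kinases of the integrated stress response slow translation. It drives Ddit3 (CHOP), Trib3 and Chac1 and the genes of amino acid uptake and synthesis. Trib3, a pseudokinase (chr2:152163161-152169796), was at 47.7, 73.7 and 72.7 FPKM without TGF-β and at 11.1, 95.3 and 21.7 with TGF-β. Ddit3 was at 41.0, 59.2 and 70.1 FPKM without TGF-β and at 19.6, 298 and 39.8 with it. Both inhibitors lay above the control in each state. In both genes the differences were under 1 on the log2 scale except in LNA-miR31-TGFb, at 2.998 for Trib3 and 3.86 for Ddit3. Chac1, an enzyme that degrades glutathione, was at 32.2, 48.4 and 49.3 FPKM and then 7.06, 109 and 16.4. Nupr1, a small stress-induced chromatin protein, was at 71.9, 109 and 116 FPKM and then 69.7, 303 and 131. Slc7a11, the cystine importer, was at 3.96, 6.01 and 7.54 FPKM and then 3.96, 14.7 and 6.68. The first 3 of these 5 genes were lower in the negative control with TGF-β than without it, so their levels with the miR-27 inhibitor and TGF-β stayed under the control without TGF-β. Gadd45a, a growth-arrest gene of the p53 and ATF4 responses, was at 22.3, 41.4 and 48.8 FPKM and then 75.2, 211 and 115. Hmox1, the heme-degrading enzyme induced by oxidants, was at 49.3, 75.6 and 74.4 FPKM and then 47.0, 118 and 65.9. In both genes each inhibitor library lay above its matched control.

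The ATF4/CHOP list had the largest median of the gene lists described. Of its 29 genes 26 were tested, the rest being under 1 FPKM. For 24 of the 26 both inhibitors lay above the control in both states, and for 0 below, against 25.2% and 21.9% of all genes. The list's median pooled difference was 0.50, beside 0.01 for all genes. Its medians without TGF-β were 0.31 (miR-31) and 0.34 (miR-27), and with TGF-β they were 0.97 and 0.40. Without LNA-miR31-TGFb, the remaining 3 inhibitor libraries lay above their controls for 24 of the 26 genes (32.1% of all genes), and the list's median was 0.33. Atf3, with a pooled difference of 0.41, and Atf5, at 0.20, are the 2 members outside that count. Atf3 differed by 1.78 in LNA-miR31-TGFb and by -0.18 to 0.02 in the other 3 differences. Atf4 itself was at 221, 287 and 289 FPKM without TGF-β and at 126, 343 and 189 with it. Asns, the asparagine synthetase, was at 105, 137 and 135 FPKM and then 39.0, 78.1 and 55.001. The arginine transporter Slc7a1 was at 28.9, 43.1 and 41.2 FPKM and then 17.4, 34.7 and 24.2. The 2 inhibitors gave nearly the same level of these genes without TGF-β. The serine and one-carbon genes Phgdh (0.18), Shmt2 (0.18) and Psat1 (0.25) had the smaller differences of the list. No member reached an adjusted p under 0.05 with all 6 libraries. Without LNA-miR31-TGFb, 13 members did, all of them higher, beside 0.968% of all genes. That library was singled out because it stood apart in these same stress genes, so the 13 calls are not independent support. Among the 13 were Trib3 (0.74, limma adjusted p = 0.0433), Asns (0.42, adjusted p = 0.043) and Slc7a1 (0.50, adjusted p = 0.0373).

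**Figure D2:**
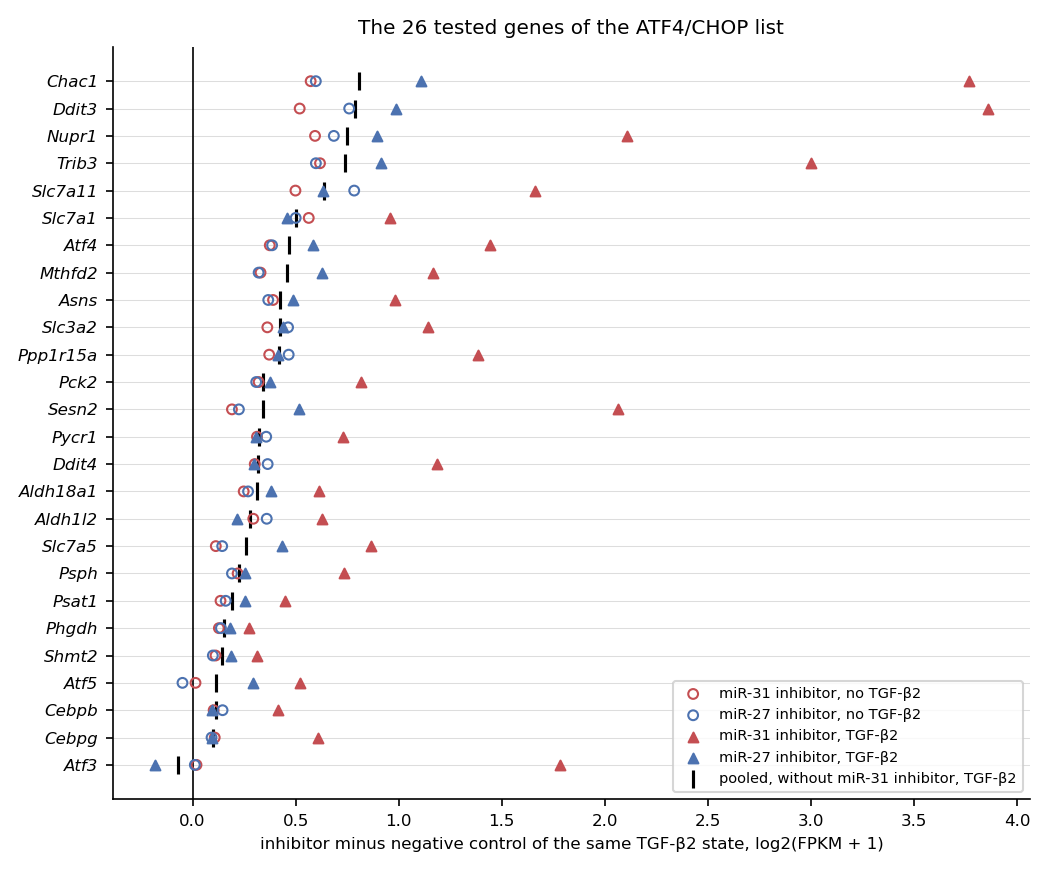
Each of the 26 tested ATF4/CHOP genes (rows) in the 4 matched differences, log2(FPKM + 1), ordered by the pooled difference without LNA-miR31-TGFb (black). The open symbols and the blue triangles sit close together, with list medians of 0.31 to 0.40, while the red triangles reach 3.86.

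**Figure D3:**
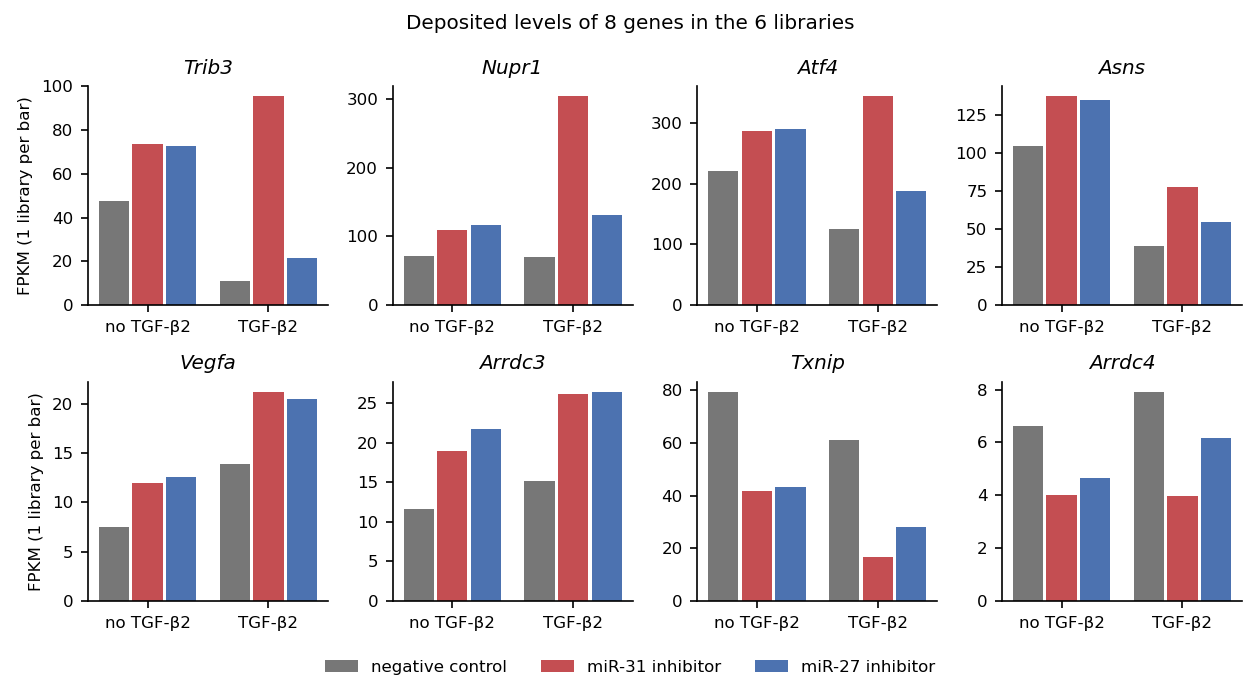
Deposited FPKM of 8 genes in the 6 libraries, 1 bar per library with no error; gray is the negative control, red the miR-31 inhibitor and blue the miR-27 inhibitor. In each state both inhibitor bars stand above the gray bar for Trib3, Nupr1, Atf4, Asns, Vegfa and Arrdc3 and below it for Txnip and Arrdc4.

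The promoters of some stress genes held letters of a known element. RefSeq promoter windows on GRCm38.p6, 300 bases from 250 before to 50 after each gene's start, were searched on both strands for TGATGNAA, the core of the element bound by ATF4 with C/EBP partners, for the E-box CACGTG and for the antioxidant element core TGACNNNGC. The ATF4/CHOP list is made of genes reported to be driven by ATF4, so its matches to that factor's element are not independent of the list. TGATGNAA occurs in 3.97% of 32851 promoters and in at least 1 promoter of 4.51% of 27025 genes. Of the 26 ATF4/CHOP genes 24 had a promoter in the table, and 8 of these held TGATGNAA (Trib3, Chac1, Asns, Atf3, Slc7a11, Nupr1, Pck2 and Pycr1). The antioxidant core stood in 7 of the same 24, beside 14% of all genes, and the E-box in 2, beside 8.09%. Of the 12 higher genes 10 had a promoter there, of which 4 held TGATGNAA, 2 the E-box and 0 the antioxidant core. Of the 12 lower genes 7 had one, of which 0 held TGATGNAA and 2 each of the others. A match is not a bound site. The 4 promoters of higher genes with TGATGNAA are printed 5′ to 3′ on the gene's strand, with the match in capitals. It lies 193 bases before the start in Chac1 (chr2:119350992-119351291, plus strand), 14 bases after it in Trib3 (chr2:152344011-152344310, minus strand), 110 before it in Nupr1 (chr7:126625421-126625720, minus strand) and at 66 and 47 before it in Slc7a11 (chr3:50443564-50443863, minus strand).
Chac1 promoter: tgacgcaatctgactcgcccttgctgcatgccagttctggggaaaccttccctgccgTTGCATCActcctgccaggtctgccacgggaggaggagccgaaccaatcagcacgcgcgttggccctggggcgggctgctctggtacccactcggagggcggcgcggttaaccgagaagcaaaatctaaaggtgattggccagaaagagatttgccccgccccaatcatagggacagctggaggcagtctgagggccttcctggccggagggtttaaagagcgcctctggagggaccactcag
Trib3 promoter: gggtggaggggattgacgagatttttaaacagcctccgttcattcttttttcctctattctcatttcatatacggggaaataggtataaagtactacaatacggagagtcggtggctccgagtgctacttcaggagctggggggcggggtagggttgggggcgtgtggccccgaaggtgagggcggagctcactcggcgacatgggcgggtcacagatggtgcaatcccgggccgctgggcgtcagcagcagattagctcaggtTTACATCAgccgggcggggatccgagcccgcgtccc
Nupr1 promoter: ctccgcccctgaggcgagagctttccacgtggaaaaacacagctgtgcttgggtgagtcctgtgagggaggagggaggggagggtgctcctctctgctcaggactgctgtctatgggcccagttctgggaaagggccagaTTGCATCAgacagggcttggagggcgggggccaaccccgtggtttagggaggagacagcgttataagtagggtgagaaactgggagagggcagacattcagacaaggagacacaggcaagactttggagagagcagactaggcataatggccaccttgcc
Slc7a11 promoter: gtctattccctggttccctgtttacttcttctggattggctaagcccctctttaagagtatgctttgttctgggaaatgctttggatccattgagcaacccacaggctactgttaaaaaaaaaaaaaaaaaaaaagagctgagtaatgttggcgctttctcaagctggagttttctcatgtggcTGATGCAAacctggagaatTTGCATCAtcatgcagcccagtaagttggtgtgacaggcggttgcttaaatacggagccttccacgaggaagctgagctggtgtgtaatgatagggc
Slc7a11 is the only one of these 4 with 2 matches, 1 on each strand.

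Among the lower genes, Txnip led. Txnip is an α-arrestin that binds thioredoxin and restrains glucose uptake (chr3:96359691-96370724). It was at 79.2, 41.9 and 43.1 FPKM without TGF-β and at 60.9, 16.9 and 28.1 with it. All 4 inhibitor libraries lay below both controls. The pooled difference was -1.16 ± 0.21 (limma adjusted p = 0.0977), and without LNA-miR31-TGFb it was -0.97 (adjusted p = 0.0373). Arrdc4, a close relative of Txnip, was at 6.63, 4.02 and 4.66 FPKM and then 7.90, 3.99 and 6.17. Arrdc3 is of the same family and was higher, while Arrdc1 (-0.00433) lay at the control. Both Txnip and Arrdc4 are known targets of the glucose-sensing factors Mlx and Mlxip, which differed by -0.05 and 0.12. The glucose transporter Slc2a1, whose removal from the membrane Txnip promotes, was at 50.6, 65.0 and 63.7 FPKM and then 62.2, 84.2 and 72.8. The whole list of 9 tested genes was split, with 4 above (44.4%) and 4 below (44.4%) the control in both states. Over all genes these shares were 25.2% and 21.9%.

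The other lower genes belonged to several families. The acute-phase gene Saa3 was at 0.904, 0.444 and 0.246 FPKM without TGF-β and at 4.53, 0.737 and 1.46 with it. Cfb, complement factor B, was at 5.11, 3.996 and 3.986 FPKM and then 8.75, 6.12 and 5.52. Both are inflammatory genes, but the NF-κB list as a whole had a median of -0.01 over 30 genes. Of these 30, 4 lay above (13.3%) and 7 below (23.3%) in both states, beside 25.2% and 21.9% of all genes. Aldh3a1, an aldehyde dehydrogenase, was at 8.47, 5.19 and 5.72 FPKM and then 7.75, 3.97 and 4.96. Msln, the surface protein mesothelin, was at 10.2, 5.68 and 7.25 FPKM and then 10.9, 5.92 and 7.10. In both genes all 4 inhibitor libraries lay below both controls. The pooled differences of Aldh3a1 and Msln were -0.62 ± 0.09 and -0.63 ± 0.10, with limma adjusted p-values of 0.0951 and 0.0977. Sprr2b, a cornified-envelope protein gene of a family of near-identical copies, was at 4.95, 2.42 and 2.09 FPKM and then 5.13, 1.81 and 3.20, and shared reads limit that value. The remaining lower genes were Snhg9 (-0.57), Tuba1a (-0.46), Zfp326 (-0.44) and Serpinb1a (-0.44). Snhg9 is a short host gene of a small nucleolar RNA, which FPKM measures poorly.

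The comparison without TGF-β and the one with it share no library, so an error of any single library does not enter both. Both use the same negative-control inhibitor. An effect of that inhibitor would recur in both states and cannot be told apart from a shift common to both microRNA inhibitors. Across the 10190 genes with an ordinary name, the mean of both inhibitors minus the control in one state had a Pearson r of 0.53 and a Spearman rho of 0.56 with the same value in the other state. Genes are not independent replicates, and no p is given. Over all 11771 genes r was 0.40 and rho 0.54, and r was 0.58 for the 8022 named genes averaging 5 FPKM or more. The difference between the inhibitors behaved otherwise. miR-31 minus miR-27 inhibitor in one state had an r of -0.07 with that in the other over the 10190 genes. Among named genes, 30 were at least 0.5 above the control with both inhibitors without TGF-β, and with TGF-β 27 of them (90%) were above it with both inhibitors, beside 36.9% of all named genes. In the opposite order, 17 of 18 genes (94.4%) carried over, beside 45.1%. Lower genes carried over less evenly. Of 7 at least 0.5 below without TGF-β, 2 were below with both inhibitors with TGF-β (28.6%, beside 35.2% of all named genes), and of 14 chosen with TGF-β, 9 were below without it (64.3%, beside 36.9%).

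**Figure D4:**
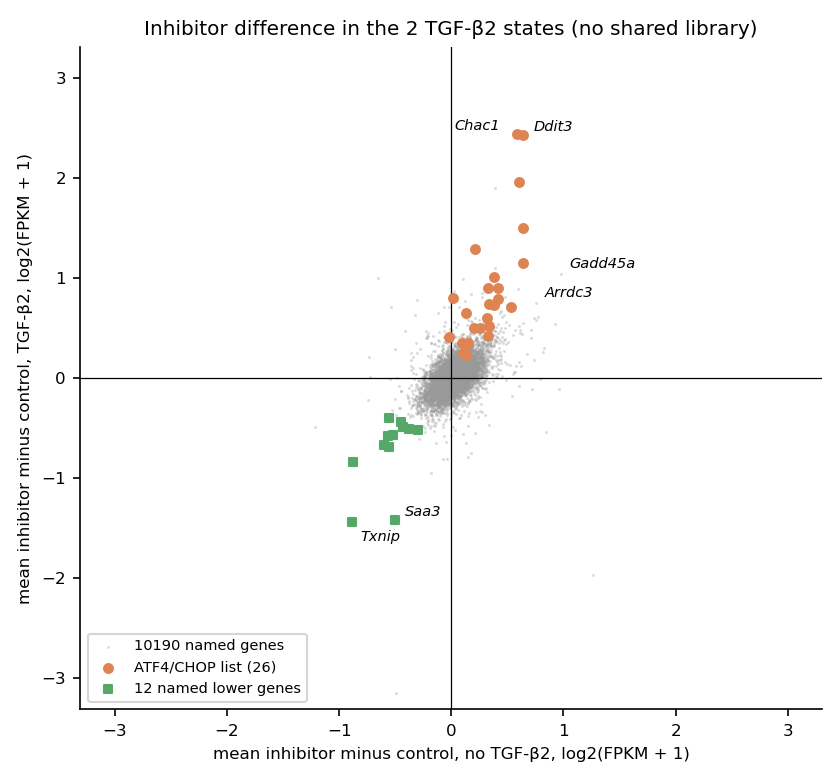
Each dot is 1 of 10190 named genes, placed by the mean of both inhibitors minus the negative control without TGF-β2 (x) and with it (y), both in log2(FPKM + 1). The cloud slopes upward (r = 0.53); ATF4/CHOP genes (orange) lie above the diagonal and the named lower genes (green) in the lower left.

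The list of low oxygen and glycolysis genes, which holds Vegfa, had 22 of 33 tested genes above the control with both inhibitors in both states and 1 below, beside 25.2% and 21.9% of all genes. Its median was 0.13, and no member passed an adjusted p of 0.05 with all 6 libraries. Ndrg1, a hypoxia-responsive gene, was at 41.2, 71.4 and 64.7 FPKM without TGF-β and at 25.4, 34.4 and 33.5 with it. Adm, the vasodilator adrenomedullin, was at 26.6, 39.7 and 42.9 FPKM and then 18.4, 23.97 and 27.2. Ddit4, an inhibitor of mTORC1 that the ATF4 list also holds, had a pooled difference of 0.54. Unlike the stress genes, this list's median in LNA-miR31-TGFb, 0.08, was the lowest of its 4 matched medians, the others being 0.13 to 0.15. Without that library 26 of the 33 lay above the control, beside 32.1% of all genes. Among endothelial growth regulators, Angpt2, a Tek ligand that destabilises vessels, was at 48.9, 87.7 and 78.9 FPKM without TGF-β and at 4.08, 7.41 and 5.85 with it, and Kit differed by 0.52. The angiogenic list, which also holds Vegfa and Cxcr4, had 12 of 26 genes above and 3 below.

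Genes of the circadian clock, a list added after Nr1d1 and Dbp were seen, lay above the control in 12 of 15 tested genes, those 2 included, and below it in 0, beside 25.2% and 21.9% of all genes. The list's median was 0.18, and no member passed an adjusted p of 0.05. Nr1d1, the repressor REV-ERBα (chr11:98603187-98636556), was at 5.81, 8.57 and 8.48 FPKM without TGF-β and at 7.07, 10.6 and 10.2 with it. Its 4 differences lay between 0.48 and 0.53, and its limma adjusted p of 0.0637 was among the 3 smallest, with those of Vegfa and Arrdc3. Nr1d1 and Thra overlap on opposite strands, and whether the counting used strand is not stated. Dbp, an output factor of the clock, was at 5.24, 7.19 and 7.98 FPKM and then 7.55, 11.3 and 10.3. The core gene Clock (0.04) lay near the control. Of the 21 immediate early genes tested, 12 lay above and 1 below, with a median of 0.20. Myc, which promotes growth, was at 8.88, 12.8 and 13.2 FPKM and then 6.53, 14.6 and 9.03. Dusp6, a phosphatase that restrains ERK signalling, differed by 0.38, Dusp2 by 0.38 and Egr1 by 0.47.

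Some large groups of genes for basic cell functions had small medians away from 0. The list of 17 common reference genes was split, with 5 above and 5 below and a median of 0.02. Of 77 ribosomal protein genes, 49 lay above and 1 below in both states, beside 25.2% and 21.9% of all genes. Their median was 0.07. Without LNA-miR31-TGFb, 72 of the 77 lay above, beside 32.1% of all genes. With each library centred on its median the ribosomal count above with all libraries was 31. Over all 11771 genes centring changed the count above from 2964 to 2314, so both counts depend on scale. Of 38 lysosomal genes 21 lay above and 1 below (16 and 2 after centring), led by Naglu (0.31), which degrades heparan sulfate, and Cd68 (0.27). Of 41 cell cycle and replication genes 3 lay above and 28 below, with a median of -0.10. Among these Ccne1, the cyclin of S-phase entry, differed by -0.32 and Rrm2, a subunit of ribonucleotide reductase, by -0.20, while the replication licensing factor Cdt1 differed by 0.32. Of 64 nuclear genes of oxidative phosphorylation 1 lay above and 30 below, with a median of -0.05. Without LNA-miR31-TGFb 9 lay above, and the median was -0.03. Of 33 splicing factors 7 lay above and 19 below. Here Srsf1 was at 99.5, 81.8 and 78.2 FPKM without TGF-β and at 105, 78.4 and 86.5 with it, and Srsf3 at 121, 101 and 99.4 and then 129, 97.2 and 107. Both encode serine/arginine-rich splicing proteins, and Clk1, a kinase of such proteins, lay on the other side, at 0.25. Without LNA-miR31-TGFb, 29 of the 41 cell cycle, 30 of the 64 oxidative phosphorylation and 20 of the 33 splicing genes lay below, beside 27.1% of all genes. The direction of the ribosomal, lysosomal, cell cycle, oxidative phosphorylation and splicing medians was the same after centring. Over all genes, the median pooled difference was -0.02 among the 2354 genes of highest mean level and 0.02 among the 2355 of lowest, and -0.01 among the 2355 with the shortest loci and 0.03 among the 2354 with the longest. The part of level and length in these small medians was not tested.

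**Figure D5:**
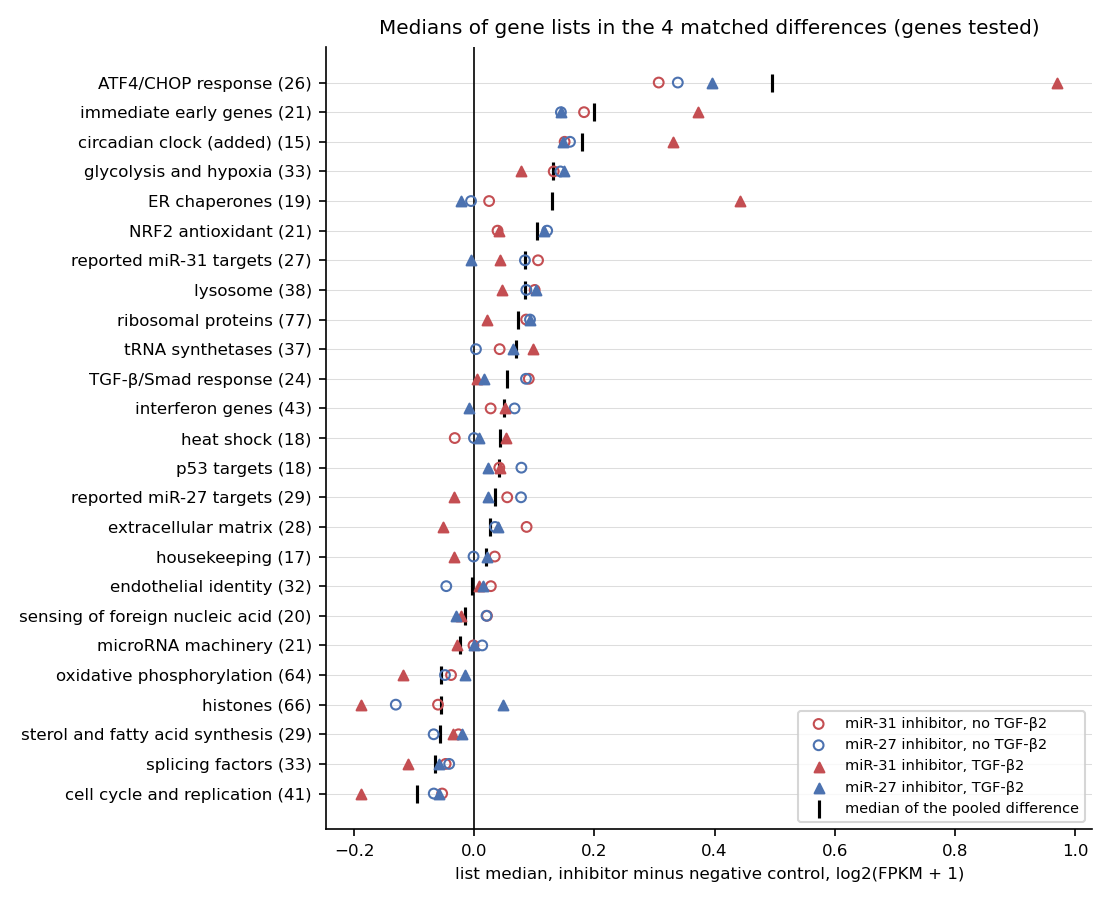
Median of each gene list (rows, number tested in brackets) in each of the 4 matched differences (symbols), with the median of the pooled difference in black, log2(FPKM + 1). ATF4/CHOP genes stand apart at a pooled median of 0.50, and the ER chaperone list is high only in the red triangle, LNA-miR31-TGFb.

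Other stress lists had smaller medians. ER chaperones, the targets of XBP1 and ATF6, had a median pooled difference of 0.13 that came from a single library. Their median was 0.44 in LNA-miR31-TGFb and -0.02 to 0.02 in the other 3 differences, and it was -0.01 without that library. Hspa5, the main ER chaperone, was at 527, 522 and 522 FPKM without TGF-β and at 715, 1493 and 678 with it. Of the 19 genes tested, 7 lay above the control with both inhibitors in both states and 0 below. Over all genes these shares were 25.2% and 21.9%. Herpud1, an ER degradation protein, was among the 7 ER chaperone genes above. It was at 18.4, 24.1 and 24.8 FPKM without TGF-β and at 21.5, 218 and 31.2 with it. The p53 list, led by Gadd45a and Gdf15 (0.56), had 7 of 18 genes above (38.9%) and 4 below (22.2%). The NRF2 list, led by Hmox1, had 10 of 21 above (47.6%) and 4 below (19%). Heat shock genes had 6 of 18 above (33.3%) and 5 below (27.8%). The heat shock shares lay near those of all genes. Of the 18 p53 genes, 3 were at least 0.25 higher in all 4 differences and 0 at least 0.25 lower. Over all genes those shares were 0.951% and 0.306%.

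Genes of the reply to foreign nucleic acid lay near the background. Over all genes 25.2% were above and 21.9% below in both states. Of 43 interferon genes 15 were above and 12 below, with a median of 0.05. The antiviral gene Mx2 (0.53) was higher, and Eif2ak2 (-0.26), the kinase of double-stranded RNA that can start the integrated stress response, was lower. Of 20 genes that sense or handle foreign nucleic acid 6 were above and 5 below. Endothelial identity genes had 7 of 32 above and 6 below, with a median of 0.00. In the microRNA machinery 2 of 21 were above and 4 below, and Dgcr8, the partner of Drosha, differed by -0.23. TGF-β/Smad response genes had 8 of 24 above (33.3%) and 2 below (8.33%). Among these Tgif1, a Smad corepressor, was higher (0.42) and Klf10 lower (-0.31). Of the study's 5 secreted factors 3 were tested, and Cx3cl1 (-0.16), Il6 (-0.11) and Angptl2 (0.01) did not lie on one side of the control in both states. Cxcl16 was under a mean of 1 FPKM, and Ccl17 was left out for a 0. Ccl17 was at 0.0957, 0 and 0.0742 FPKM without TGF-β and at 19.5, 6.83 and 16.6 with it.

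Targets of the microRNAs were compared in the same way. Over all genes 25.2% lay above and 21.9% below. Of 27 reported miR-31 targets tested, 9 lay above (33.3%) and 2 below (7.41%), with a median of 0.08. Of 29 reported miR-27 targets, 10 lay above (34.5%) and 5 below (17.2%), with a median of 0.03. The largest among these were Itga5 (0.18) for miR-31, and Plk2 (0.44), Nrp2 (0.30) and Pparg (0.29) for miR-27. For 9971 tested genes with a 3′ UTR in GENCODE vM21, the longest 3′ UTR was searched for TCTTGCC (miR-31) and ACTGTGA (miR-27), the complements of the seeds. The median pooled difference was 0.01 for 954 genes with a miR-31 match only, 0.02 for 1401 with a miR-27 match only, 0.03 for 374 with both and 0.01 for 7242 with neither. Genes with matches have longer 3′ UTRs. Among genes with a 3′ UTR longer than the median of these genes, the medians were 0.02 for a miR-31 match only, 0.02 for a miR-27 match only, 0.03 for both and 0.02 for neither. A match stood in 3 of the 12 higher genes (25%) and in 2 of the 11 lower genes with a 3′ UTR (18.2%), beside 27.4% of all genes. Of the higher genes Fbxo32 held both and Hmox1 and Slc7a11 1 each; Vegfa, Arrdc3, Txnip and the other stress genes held none. The windows show the matches in the higher genes, in capitals, with up to 11 bases on either side.
Fbxo32, miR-31 match: tccatcctcttTCTTGCCcgtcttttggc
Fbxo32, miR-27 match: gtgaattttcaACTGTGAttttatgtgtg
Hmox1, miR-31 match: gtaagggagaaTCTTGCCtggctctcttc
Slc7a11, miR-27 match: gggacatctatACTGTGAaagtattttgt
Fbxo32 was at like levels with the 2 inhibitors in both states. Hmox1, with a miR-31 match, was at 75.6 FPKM (miR-31 inhibitor) and 74.4 (miR-27 inhibitor) without TGF-β and at 118 and 65.9 with it. Slc7a11, with a miR-27 match, was at 6.01 and 7.54 FPKM and then 14.7 and 6.68.

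Over all genes the 2 inhibitors lay closer to each other than both together lay to the control. The median absolute difference between them was 0.05, beside 0.07 for the pooled difference, and 0 genes (0%) reached an adjusted p under 0.05 in limma, with 223 higher and 204 lower at an unadjusted p under 0.05. Among the 24 named genes the smallest limma adjusted p for miR-31 minus miR-27 was 0.922. The fit has few degrees of freedom, and a p that misses the threshold does not show that the inhibitors act alike. For Vegfa the difference was -0.01 ± 0.06 and for Txnip -0.37 ± 0.21. Some differences were larger beside their SE, with -0.35 ± 0.06 for Snhg9, -0.27 ± 0.06 for Msln and -0.35 ± 0.09 for Arrdc4. Hmox1 differed the other way (0.42 ± 0.20). The 24 genes were chosen for both inhibitors lying on one side of the control, so they do not show how alike the inhibitors are. Dependence of the pooled difference on TGF-β was called for 2 genes (0.017%), BC128282 and Hist1h2br.

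Leaving out LNA-miR31-TGFb changed the count of genes called. The 3 remaining inhibitor libraries against the 2 controls gave 114 higher genes (0.968%) and 36 lower (0.306%) at a limma adjusted p under 0.05. Of these, 112 and 31 had all 4 matched differences, the left-out library's included, on the same side. Over all genes, the 3 remaining differences lay above the control for 3773 and below it for 3195. All 4 did so for 2964 and 2578. The left-out library is measured against the same control with TGF-β, so these counts are not an independent check. Of the 24 named genes 14 passed, with Vegfa (0.59), Arrdc3 (0.76), Pim1 (0.75), Hmox1 (0.55) and Txnip (-0.97) at an adjusted p of 0.0373. Leaving out any other library gave at most 3 genes.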

How the data were processed

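RNA of 6 libraries was measured, 1 per condition. Directional libraries of RNA depleted of ribosomal RNA were made, per the labels' protocols. The authors deposited 1 table of FPKM. TopHat2 2.0.9, Cufflinks 2.1.1 and the build mm9 stand in the submitters' processing notes, and counting options are not given in the sources used here. Listed starts count from 0 and are printed counted from 1. A place is the listed locus, which other names can share.

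The values were tested on log2(FPKM + 1) with limma 3.58.1 in R 4.3.3: pooled inhibitor plus TGF-β, 3 residual degrees of freedom, 2-sided, Benjamini-Hochberg adjustment over 11771 genes, threshold 0.05. A pooled difference is understated for low genes on this scale. The fit was tested on simulated data. Scaling, pseudocount, filters, model and left-out libraries were varied.

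Named genes were the 12 higher and 12 lower with the largest smallest-of-4 difference, without short RNAs, histones and unnamed models, plus up to 4 members with the largest pooled difference in each list; 1 lower gene is not reported here. The comparison, the 39 lists and the rules were chosen with earlier results of these data known. The clock list, Krt19, the promoter letters, Atf4, Atf5, Atf3, Asns, Slc7a1, Phgdh, Shmt2, Psat1, Nr1d1, Clock, Slc2a1, Arrdc1, Mlx and Mlxip were chosen after values were seen. Giving values without LNA-miR31-TGFb beside the main ones was also chosen after values were seen.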

Additional observations from a re-analysis of the deposited data

Results flagged for a closer look

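The pooled difference depended on TGF-β for 2 of 11771 genes in limma. BC128282, an unnamed model, was at 123 FPKM with the negative control without TGF-β, 0.267 in LNA-miR31-cont and 0.879 in LNA-miR27-cont, and at 3.09, 17.0 and 13.3 FPKM with TGF-β. The dependence was 8.30 ± 0.38 (SE of the fit, limma adjusted p = 0.036). Hist1h2br, a histone gene nearby on chromosome 13, was at 20.0, 0.302 and 0.629 FPKM without TGF-β and at 0.513, 0.958 and 1.04 with it (4.25 ± 0.20, adjusted p = 0.036). In both the single negative-control library without TGF-β stood far above all others. Histone genes have near-identical copies, so shared reads limit these values. With a pseudocount of 0.1 FPKM, and without LNA-miR31-TGFb, 0 genes were called.

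For 5 list members both inhibitors lay on one side of the control without TGF-β and on the opposite side with it, and limma did not call any of these differences. With TGF-β minus without, they were 0.77 for Sdf2l1, -0.66 for Timp3, -0.53 for Il6, 0.39 for Vwf and -0.45 for Pdgfra. The medians of the heat shock list (0.0464) and of the list of genes that sense foreign nucleic acid (-0.047) also switched sides between states. Those 2 differences were not tested.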

How the results depend on the processing

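In the pooled comparison, 8 genes were called higher with a mean of at least 5 FPKM, 15 with limma's trend and robust options and 4 without short RNAs, histones, unnamed models and names of several genes, and 1 was called lower with names at 0 kept; these filters tested 8861, 10190 and 11816 genes. The pseudocount of 0.1 FPKM, no minimum mean, centring, 3 inhibitor levels and no TGF-β term gave 0 calls. Leaving out 1 library gave 0 to 114 higher and 0 to 36 lower genes. The 114 and 36 came without LNA-miR31-TGFb, and the other 5 gave at most 1 and 2. The count of genes at 0.5 in all 4 differences, 9 higher and 2 lower, was 18 and 6 with a pseudocount of 0.1 FPKM, 112 and 36 at a size of 0.25, 0 and 0 at a size of 1, and 1 lower with a mean of at least 5 FPKM. Dependence on TGF-β was called for 0 genes with a pseudocount of 0.1 FPKM and for 0 to 11 genes with 1 inhibitor library left out. The difference between the inhibitors, an alternative chosen after seeing the data, gave 0 to 450 calls with 1 library left out, the 450 without LNA-miR31-cont. The cause of these changes was not tested. No named gene changed direction under any alternative in which it was tested. The named higher and lower genes were chosen for 4 differences of the same sign, which largely fixes that outcome. Without replicates and with unknown depth, the precision of any single level is unknown. No paired analysis was possible because each condition has 1 library and no replicate numbers pair the samples beyond the TGF-β state.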

Other observations

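Of the 45 names left out for a 0, Mir763, a short RNA, was listed at 152 and 99.2 FPKM in the negative-control libraries without and with TGF-β and at 0 in all 4 inhibitor libraries. Kept in the fit, it was the 1 gene called lower. A 0 in this table can be a failed estimate. Ahnak, a large scaffold protein gene, was listed at 0 in the negative control without TGF-β and at 262 to 492 FPKM in the other 5 libraries, and Itch, a ubiquitin ligase gene, at 0 in the same library and at 25.7 to 29.6 FPKM elsewhere. Mapk9 was listed at 0 in both miR-31 libraries and at 19.9 to 23.0 FPKM in the other 4. Rbbp7, a histone-binding protein gene, was listed at 0 in LNA-miR31-TGFb and at 166 to 187 FPKM elsewhere.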
